A study of Mus musculus with 8 samples.

Results

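The 9 genes described here, Dclk1, Trpm5, Pou2f3, Avil, Sh2d6, Il25, Gfi1b, Alox5ap and Ltc4s, are markers of the intestinal tuft cell and were taken by name from a table of 54532 genes. Their values were compared between 4 WT and 4 Rank-knockout mice at lactation day 5, each giving 1 library of epithelial cells from the intestine. Rank (gene symbol Tnfrsf11a) encodes a receptor of the TNF receptor family that activates NF-κB, and the comparison asks what its loss changes in the gut epithelium of nursing mothers. According to the study's methods, a conditional Rank allele was removed in the gut epithelium with Cre under the Villin1 promoter. As background, Villin1 is an epithelial gene, and whether the deletion reached the tuft cells of these mice was not examined. WT and knockout females were littermates mated with C57BL/6J males. The labels do not give the age of the dams, the segment of the intestine or whether the WT dams carried Cre.

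Tuft cells are rare chemosensory cells scattered among the absorptive cells of the gut. They sense luminal metabolites with a signalling cascade shared with taste cells, which ends in the cation channel Trpm5. In response they release interleukin-25 and cysteinyl leukotrienes, which act on innate lymphoid cells, and the interleukin-13 that these cells return drives the formation of more tuft and goblet cells. The transcription factor Pou2f3 is required for the lineage.

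Of the 9 genes, 5 had enough counts to be tested (Ltc4s, Dclk1, Alox5ap, Sh2d6 and Trpm5), and 4 did not (Avil, Pou2f3, Il25 and Gfi1b). Ltc4s, the enzyme that makes leukotriene C4, was lower in Rank-knockout, by 0.93 on the log2 scale. No member was called higher. The other tested members lay between -0.58 for Trpm5 and 0.21 for Alox5ap, without passing the test. A gene was called when its adjusted p in edgeR's quasi-likelihood test was under 0.05 over all 9855 genes tested, of which 30.4% were called, 15.8% higher and 14.6% lower in Rank-knockout. The count of 1 in 5 does not exceed this background, so it is not a result about the tuft cell genes as a group. Without adjustment, 0 of the 5 were higher and 1 lower at p under 0.05, and DESeq2 and limma-voom also gave 0 higher and 1 lower.

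The libraries held between 1530781 and 4335653 counts, and 3 of the 4 WT libraries were shallower than every Rank-knockout library. The 9 members together took between 0.0036% and 0.0059% of the scaled library, so most of them rest on few counts. Values below are in CPM, counts scaled to 1000000 per library on sizes adjusted by TMM, unless they are called counts. The kit reads the 3′ end of each transcript, about 1 tag per molecule, so that CPM of different genes can be set side by side without dividing by length. Tnfrsf11a itself was counted in every Rank-knockout library (38.0 ± 8.64 CPM, against 60.65 ± 17.7 for WT; SD, n = 4 each), with a log2 fold change of -0.67 (adjusted p = 0.032, edgeR). A 3′ tag checks the deletion only where it lies in the deleted part of the gene, which was not examined. The paper reports loss of intestinal RANK expression in its conditional knockout mice, shown among others by staining.

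Ltc4s and Alox5ap stand for the leukotriene arm of the tuft cell. Alox5ap (5-lipoxygenase activating protein) presents arachidonic acid to 5-lipoxygenase, and Ltc4s, a membrane enzyme, joins the resulting leukotriene A4 to glutathione. Both are also made by myeloid and mast cells. Ltc4s (ENSMUSG00000020377; GRCm38 chromosome 11, 50236461 to 50238616, minus strand) is protein-coding, like the other 8 members. WT replicates 1 to 4 held 17, 68, 27 and 29 Ltc4s counts, and Rank-knockout replicates 1 to 4 held 43, 31, 18 and 24. Scaled to depth, the WT libraries were at 11.65, 17.2, 18.4 and 19.3 CPM and the Rank-knockout libraries at 9.13, 11.63, 8.09 and 6.33 CPM. WT replicate 1 and Rank-knockout replicate 2 had nearly the same value, and otherwise every WT library was above every Rank-knockout library.

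Ltc4s averaged 16.65 ± 3.45 CPM over the WT libraries and 8.79 ± 2.22 CPM over the Rank-knockout libraries (SD, n = 4 each). The log2 fold change was -0.93 (SE 0.25, 95% interval -1.47 to -0.40, adjusted p = 0.011, edgeR). It was called under each of the 17 alternative settings tried, among them each library left out in turn, where its log2 fold change ran from -1.08 to -0.73 and its adjusted p from 0.0086 to 0.035. The ranges of the genotypes overlapped with library totals as the scale (WT minimum 11.1, Rank-knockout maximum 12.2 CPM) and with sizes that leave out the 50 most abundant genes (13.7 and 14.6), and the gene was still called with both. In bulk samples, fewer tuft cells, less RNA per tuft cell and a change in other cells that make Ltc4s cannot be told apart.

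Alox5ap (ENSMUSG00000060063; chromosome 5, 149264767 to 149288153, plus strand) had WT counts of 11, 21, 6 and 15 and Rank-knockout counts of 38, 21, 18 and 24. In CPM this was 7.54, 5.32, 4.10 and 9.98 for WT and 8.07, 7.88, 8.09 and 6.33 for Rank-knockout. The Rank-knockout values all fell inside the WT range. Its log2 fold change of 0.21 (SE 0.31, 95% interval -0.44 to 0.86) did not pass the test (adjusted p = 0.65, edgeR). Ltc4s was thus called lower while Alox5ap, which acts upstream in the same pathway, had an interval that reached from lower to higher values. As a description made after the values were seen, there were 1.54, 3.24, 4.5 and 1.93 Ltc4s counts per Alox5ap count in WT replicates 1 to 4, and 1.13, 1.48, 1.0 and 1.0 in Rank-knockout replicates 1 to 4. The difference between the changes of the 2 genes was not tested.

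**Figure D1:**
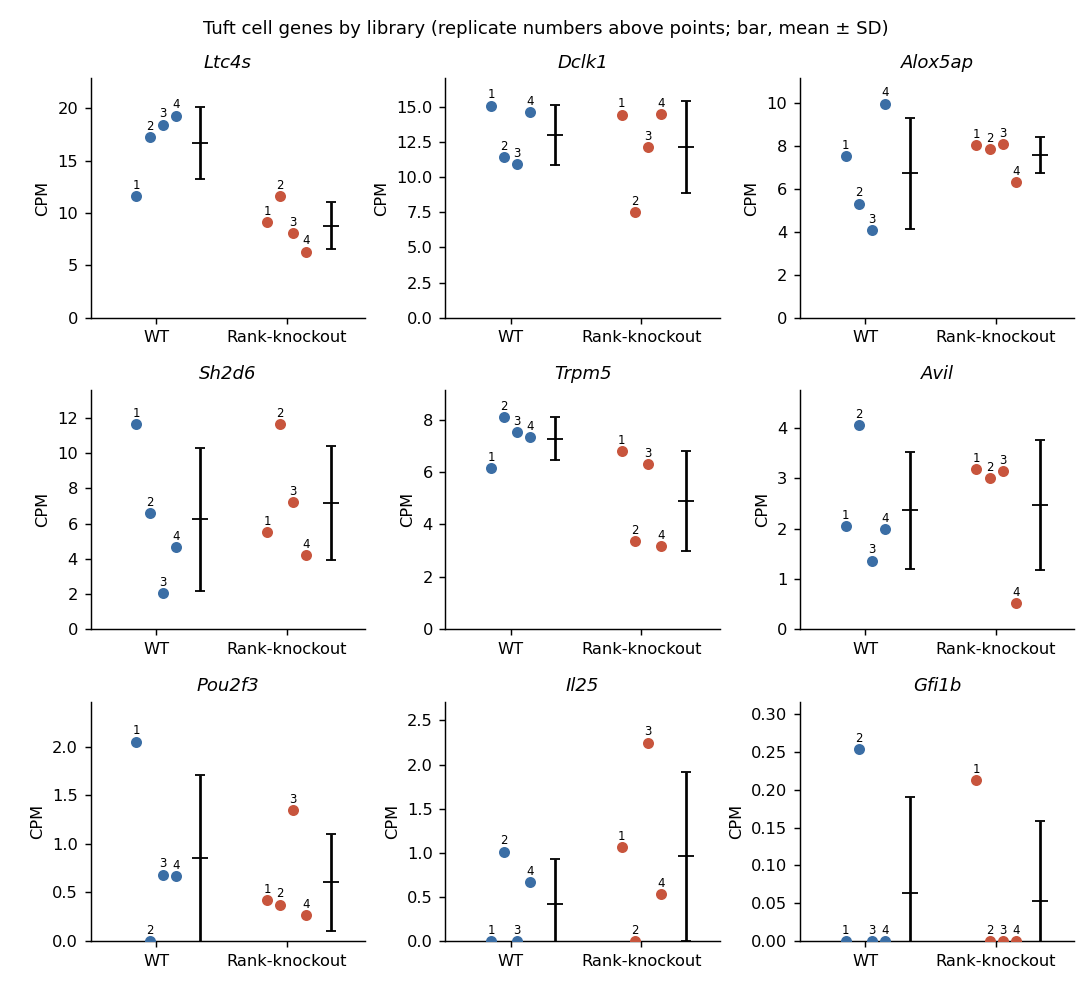
CPM of the 9 tuft cell genes in each library, in 9 panels with their own axes from 0. Points are numbered by replicate, and the labels do not say whether a number pairs libraries across genotypes. Bars show the mean ± SD of 4 libraries, drawn only above 0. Ltc4s sits at 11.65 to 19.3 in WT and at 6.33 to 11.63 CPM in Rank-knockout, and the points of the other 8 genes overlap between genotypes.

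Trpm5 (ENSMUSG00000009246; chromosome 7, 143069153 to 143094642, minus strand) encodes the calcium-activated channel that depolarizes the tuft cell at the end of the taste cascade. Its counts were 9, 32, 11 and 11 in WT and 32, 9, 14 and 12 in Rank-knockout. Scaled, the WT libraries held 6.16, 8.11, 7.51 and 7.32 CPM and the knockout libraries 6.79, 3.38, 6.29 and 3.16 CPM. Rank-knockout replicates 2 and 4 lay below every WT library, and replicates 1 and 3 lay within the WT range. The log2 fold change of -0.58 (SE 0.33, 95% interval -1.28 to 0.12) did not pass the test (adjusted p = 0.20, edgeR), and it passed in none of the 17 alternatives, where it ran from -0.83 to -0.37. Trpm5 passed the filter on low counts in all 4 WT libraries but in only 2 of the Rank-knockout libraries.

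Dclk1, a microtubule-associated kinase, is the classical histological marker of tuft cells in the mouse gut. Dclk1 (ENSMUSG00000027797; chromosome 3, 55242364 to 55539068, plus strand) was counted 22, 45, 16 and 22 times in WT and 68, 20, 27 and 55 times in Rank-knockout. Scaled, WT libraries held 15.07, 11.4, 10.9 and 14.6 CPM and Rank-knockout libraries 14.4, 7.505, 12.1 and 14.5 CPM. Only Rank-knockout replicate 2 lay below the WT range, and the other 3 libraries lay inside it. The means were 13.01 ± 2.15 and 12.1 ± 3.28 CPM (SD, n = 4 per genotype), and the log2 fold change was -0.06 (SE 0.26, 95% interval -0.60 to 0.48, adjusted p = 0.89, edgeR). Its sign was positive with library totals (0.14) and without Rank-knockout replicate 2 (0.10).

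Sh2d6 (ENSMUSG00000052631; chromosome 6, 72513641 to 72521707, minus strand), an SH2 domain protein found in tuft cell signatures, varied widely within genotypes. WT libraries held 17, 26, 3 and 7 of its counts and Rank-knockout libraries 26, 31, 16 and 16. Its level ran from 2.05 CPM in WT replicate 3 to 11.65 CPM in WT replicate 1, and from 4.22 to 11.63 CPM in Rank-knockout, so that the ranges nearly coincided. The log2 fold change of 0.14 (SE 0.42, 95% interval -0.76 to 1.03) did not pass the test (adjusted p = 0.83, edgeR), and it was negative without WT replicate 3 (-0.13) or without Rank-knockout replicate 2 (-0.19).

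**Figure D2:**
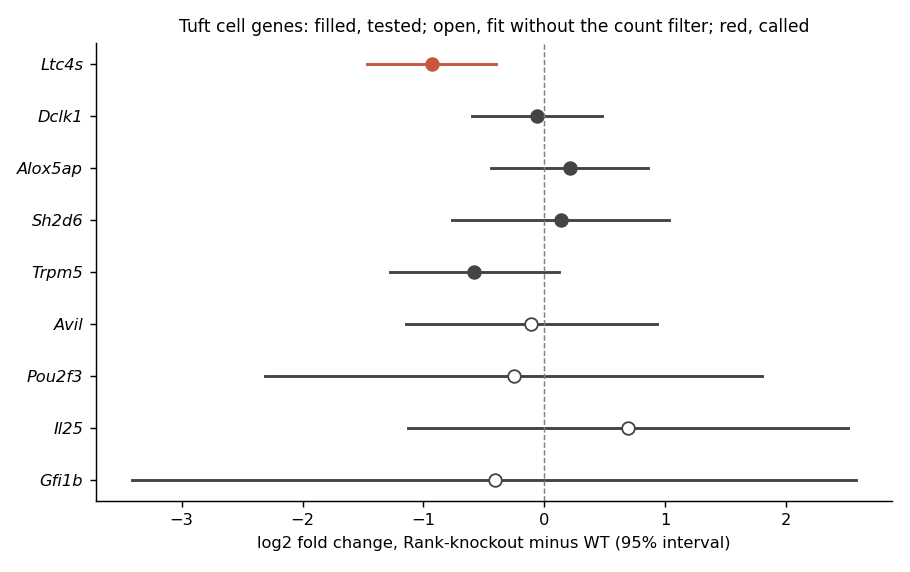
Log2 fold change of each tuft cell gene, Rank-knockout minus WT, with its 95% interval on the horizontal axis and genes ordered by mean level. Filled points are the 5 tested genes, open points the 4 genes fitted only without the filter on low counts, and the interval of Ltc4s (-1.47 to -0.40, in red) alone leaves out 0.

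Of the 4 members with too few counts, Avil came closest to the filter, which asks for at least 4.302 CPM in 4 libraries. Avil (ENSMUSG00000025432; chromosome 10, 127000709 to 127020994, plus strand), or advillin, is an actin-binding protein of the villin family found in the microvilli of tuft cells. Its counts were 3, 16, 2 and 3 in WT and 15, 8, 7 and 2 in Rank-knockout, which is 2.37 ± 1.17 and 2.46 ± 1.29 CPM (SD, n = 4 per genotype). Fitted with all genes kept, its change was -0.11 on the log2 scale (SE 0.53, adjusted p = 0.92, edgeR), and a difference of that size could not be detected at this depth.

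The transcription factors of the lineage were near the limit of detection. Pou2f3 (ENSMUSG00000032015; chromosome 9, 43123939 to 43210369, minus strand) was counted 3, 0, 1 and 1 times in WT and 2, 1, 3 and 1 times in Rank-knockout. Gfi1b (ENSMUSG00000026815; chromosome 2, 28609450 to 28621982, minus strand), a zinc finger repressor shared by tuft cells and blood cells of the megakaryocyte and erythroid lines, had 1 count in WT replicate 2, 1 count in Rank-knockout replicate 1 and 0 in the other 6 libraries. A count of 0 allows up to 3 counts, or 0.637 to 2.06 CPM depending on the library. Summed over the libraries of a genotype, the rate of Pou2f3 in Rank-knockout was 0.875 times that in WT (95% interval 0.239 to 3.50) and that of Gfi1b was 0.625 times (0.00796 to 49.1), intervals that cover counting error only. No direction can be read from either gene.

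Il25 (ENSMUSG00000040770; chromosome 14, 54932695 to 54935837, plus strand), the cytokine by which tuft cells activate group 2 innate lymphoid cells, was counted 0, 4, 0 and 1 times in WT and 5, 0, 5 and 2 times in Rank-knockout. Its summed rate was 1.5 times as high in Rank-knockout, with a counting interval of 0.492 to 5.44. The fit without the filter gave a log2 fold change of 0.69 (SE 0.93, adjusted p = 0.65, edgeR). In that fit 0 of these 4 genes were called, also at an unadjusted p under 0.05, against 15.2% of its 20768 genes.

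Ranked by mean level over the 8 libraries, the order was Ltc4s (12.7 CPM), Dclk1 (12.6), Alox5ap (7.16), Sh2d6 (6.69), Trpm5 (6.09), Avil (2.42), Pou2f3 (0.727), Il25 (0.690) and Gfi1b (0.0582). Neighbours in this order overlapped in their ranges in every case. Within libraries, Trpm5 exceeded Avil in 8 of 8 libraries, and Dclk1 exceeded Alox5ap in 7 of 8, whereas Ltc4s exceeded Dclk1 in only 4 of 8. Ltc4s led in 3 of the WT libraries, and Dclk1 was above it in WT replicate 1 and in 3 of the Rank-knockout libraries. At 25.3% and 25.0%, the percentiles of Ltc4s and Dclk1 among the tested genes placed even the most abundant members among the low-expressed genes of the epithelium.

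The level summed over all 9 members was 56.2, 54.0, 45.1 and 59.2 CPM in WT replicates 1 to 4 and 48.8, 45.4, 48.6 and 35.85 CPM in Rank-knockout replicates 1 to 4. WT replicate 3 lay within the Rank-knockout range, and the other 3 WT libraries lay above it. The means of 53.6 ± 6.09 and 44.7 ± 6.07 CPM (SD, n = 4 per genotype) correspond to a log2 ratio of -0.26. It was -0.07 with library totals, -0.14 with sizes that leave out the 50 most abundant genes, -0.10 without Alox5ap, Ltc4s and Gfi1b and -0.04 without Ltc4s alone. Ltc4s took 20.7%, 31.9%, 40.9% and 32.6% of the members' counts in WT and 18.7%, 25.6%, 16.7% and 17.6% in Rank-knockout.

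**Figure D3:**
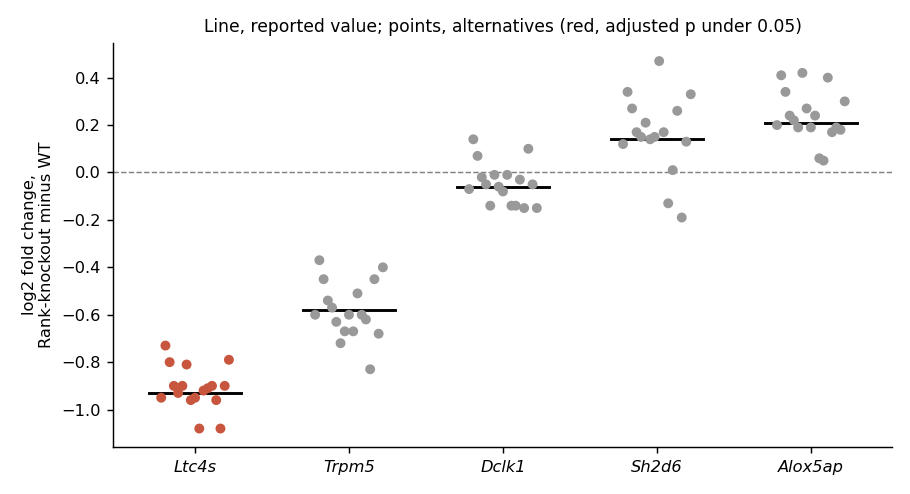
Log2 fold change (Rank-knockout minus WT) of the 5 tested members as reported, shown by a line, and under each alternative setting, shown by points that are red where the adjusted p was under 0.05. All points of Ltc4s are red and lie between -1.08 and -0.73, those of Trpm5 lie between -0.83 and -0.37 with none past the threshold, and those of Dclk1 and Sh2d6 fall on both sides of 0.

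The tested members did not vary as a block over the 8 libraries. Pearson correlations of their log2 CPM ran from -0.29 (Trpm5 with Sh2d6) to 0.64 (Trpm5 with Ltc4s), with 0.54 for Sh2d6 with Alox5ap. They are descriptions over libraries that include both genotypes and differ in depth. The 5 genes whose log2 CPM followed the mean of the tested members most closely, among 9463 genes, were Pmepa1 (r = 0.98), Rgl2 (0.94), Gm23751 (0.92), Ssx2ip (0.92) and Usp35 (0.91). They are the highest of many correlations over only 8 libraries, and whether they exceed chance was not tested.

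The other genes of the tuft cell programme were taken as 65 genes in 5 lists. Of these, 31 were tested, 4 were called higher and 8 lower, 19 were not called and 34 had too few counts, 10 of them with none. The median log2 fold change of the 31 was 0.01, against 0.02 over all genes tested. The 12 calls stand beside the 30.4% called among all genes. With library totals as the scale, 6 were called higher and 3 lower, beside 2566 higher and 859 lower among all 9855 genes tested. Many of the called genes are expressed by epithelial cells in general, so their values do not describe tuft cells alone. The summed level of the identity list was higher in every Rank-knockout library (159.5 to 335.9 CPM, against 92.88 to 152.1 for WT), a sum made mostly of Sox9, and it did not overlap between genotypes under any of the 4 scalings. The sums of the taste cascade, structure and signalling, and type 2 lists did not overlap with TMM sizes but did with library totals. With library totals the mean of structure and signalling turned from lower (976.7 in WT, 876.8 CPM in Rank-knockout) to higher (904.6 and 931.5). Most of the taste cascade sum was Gnb1 (a mean of 686.1 in WT and 502.5 CPM in Rank-knockout). Most of the type 2 sum was the goblet cell gene Clca1 (1566 and 982.3 CPM). Krt8, a keratin of the epithelium, led the structure and signalling sum (405.9 and 331.7 CPM).

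In the taste cascade, which couples receptors through G proteins and phospholipase C to calcium release, 4 of 12 genes were tested and 1 was called. Gnb1, a G protein β subunit found in nearly all cells, was at 604.2, 622.6, 834.5 and 682.9 in WT and at 436.8, 510.3, 467.2 and 595.5 CPM in Rank-knockout. It was lower by a log2 fold change of -0.45 (SE 0.15, adjusted p = 0.036, edgeR), a call made under 9 of 17 alternatives. Itpr3, the calcium release channel of taste and tuft cells, had 0.04 (SE 0.15, adjusted p = 0.87, edgeR) and the short-chain fatty acid receptor Ffar3 had -0.09 (SE 0.32, adjusted p = 0.86, edgeR). The components most restricted to taste-like cells were hardly seen. Gnat3 (the taste G protein α subunit), Gnb3 and the receptor Tas1r1 had 0 counts in all libraries. Plcb2, the phospholipase of the cascade, had 1 to 7 counts per library, and Sucnr1, the succinate receptor, had 1 count in each of 2 libraries.

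Among 9 further eicosanoid genes only Ptges3 and Lta4h were tested. Ptges3, a widely expressed Hsp90 co-chaperone with prostaglandin E synthase activity, was higher (65.76, 89.2, 74.4 and 55.25 in WT; 110.4, 112.9, 124.1 and 80.66 CPM in Rank-knockout), with overlapping ranges. Its log2 fold change was 0.57 (SE 0.18, adjusted p = 0.022, edgeR), called under 12 of 17 alternatives. Lta4h, which turns leukotriene A4 into leukotriene B4 and so uses the same substrate as Ltc4s, had a log2 fold change of -0.13 (SE 0.29, adjusted p = 0.77, edgeR). Alox5, which encodes 5-lipoxygenase itself, had 6, 14, 2 and 2 counts in WT and 22, 12, 6 and 4 counts in Rank-knockout. Hpgds, the prostaglandin D synthase of tuft cells, had 4 to 7 counts in WT and 5 to 12 in Rank-knockout, and Ptgs2 had none. Pla2g4a, the phospholipase that frees arachidonic acid, had 5, 14, 1 and 4 counts in WT and 47, 10, 6 and 13 in Rank-knockout, the most of them in replicate 1. Fitted with all genes kept, its change was 0.95 on the log2 scale (SE 0.44, unadjusted p = 0.031, adjusted p = 0.15, edgeR), which did not pass. The leukotriene enzymes beside Ltc4s thus gave either intervals around 0 or too few counts.

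Of 11 genes of tuft cell identity and acetylcholine synthesis, 5 were tested and Sox9 was called. Sox9, a transcription factor of crypt progenitors that is also kept in tuft and Paneth cells, was at 121.2, 106.4, 68.98 and 87.86 in WT and at 208.2, 190.6, 277.4 and 127.3 CPM in Rank-knockout, with no overlap. Its log2 fold change was 1.06 (SE 0.22, adjusted p = 0.003, edgeR), and it was called under all 17 alternatives. Spib (0.71, SE 0.32, adjusted p = 0.11, edgeR), a factor of M and tuft cells, and Ascl2 (1.01, SE 0.53, adjusted p = 0.18, edgeR), a stem cell factor, did not pass the test and were called under 3 and 4 of the alternatives. Chat, which makes acetylcholine in tuft cells, had at most 2 counts per library.

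Of 19 genes of tuft cell structure and signalling, 14 were tested, 2 were called higher and 3 lower. Cd24a, a surface glycoprotein of crypt and tuft cells, was at 28.1, 26.1, 28.0 and 29.3 in WT and at 62.2, 42.4, 59.8 and 33.5 CPM in Rank-knockout, with no overlap (log2 fold change 0.83, SE 0.21, adjusted p = 0.007, edgeR). Krt18, a keratin of the epithelium that tuft cells hold in large amounts, had a log2 fold change of 0.41 (SE 0.15, adjusted p = 0.046, edgeR), called under 8 of 17 alternatives. Its partner Krt8 had -0.29 (SE 0.16, adjusted p = 0.17, edgeR).

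The 3 lower genes were Espn, Cd300lf and Ptpn6. Espn, an actin bundler of microvilli in both enterocytes and tuft cells, was at 162.9 to 258.1 in WT and 103.0 to 109.9 CPM in Rank-knockout (log2 fold change -0.90, SE 0.15, adjusted p = 0.0007, edgeR). Cd300lf, a receptor of tuft and myeloid cells by which murine norovirus enters tuft cells, was at 18.5, 15.5, 11.6 and 14.0 in WT and at 6.16, 9.38, 10.8 and 7.64 CPM in Rank-knockout. Its groups did not overlap with TMM sizes, and its log2 fold change was -0.85 (SE 0.25, adjusted p = 0.019, edgeR), called under 14 of 17 alternatives. It was not called with library totals (-0.65, adjusted p = 0.059, edgeR), nor without WT replicate 1 or Rank-knockout replicate 1. Ptpn6, a phosphatase of blood cells and tuft cells, had -0.59 (SE 0.19, adjusted p = 0.026, edgeR), called under 10 of 17. Lrmp (0.10, SE 0.27, adjusted p = 0.81, edgeR), a tuft cell marker linked to calcium release, did not pass.

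**Figure D4:**
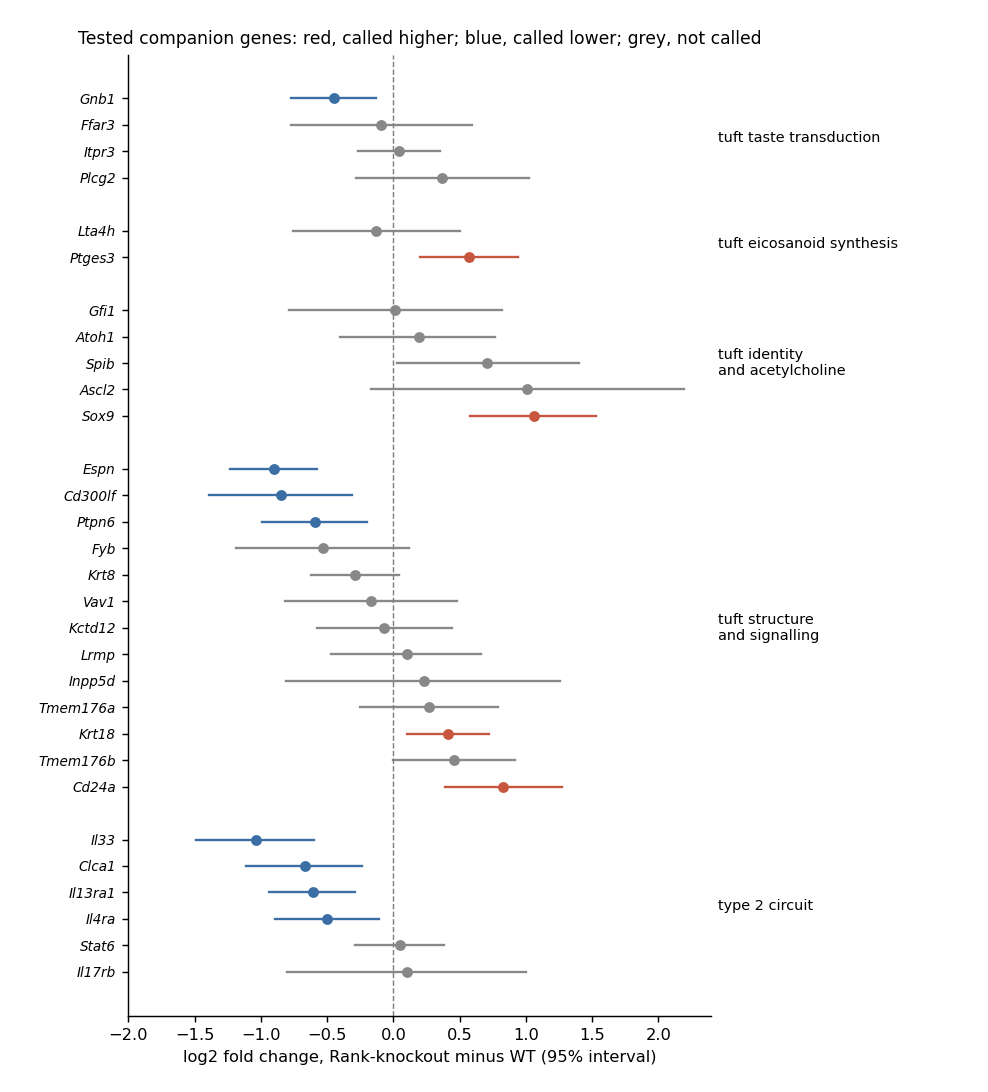
Log2 fold change (Rank-knockout minus WT, horizontal axis, with 95% intervals) of 30 of the 31 tested genes of the 5 further tuft cell lists, grouped by list and sorted within it. The 4 red genes were called higher and the 8 blue genes lower, and 4 of the 8 belong to the type 2 circuit.

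The type 2 circuit holds the cytokines and receptors by which tuft cells, lymphoid cells and goblet cells signal to each other. Of 14 genes, 6 were tested, and 4 were lower with 0 higher (edgeR; 14.6% of all tested genes were lower), also at an unadjusted p under 0.05 and with DESeq2 or limma-voom. With library totals 2 of the 6 were lower, since Il4ra and Clca1 were no longer called, and with sizes that leave out the 50 most abundant genes 3 were, without Il4ra. Il33, an epithelial and stromal alarmin, was at 26.03, 41.05, 29.37 and 29.95 in WT and 13.16, 18.39, 13.04 and 17.93 CPM in Rank-knockout, with no overlap (log2 fold change -1.04, SE 0.21, adjusted p = 0.0021, edgeR). Il13ra1, a receptor chain for interleukin-13, was at 65.9 to 78.5 in WT and 38.2 to 52.9 CPM in Rank-knockout (log2 fold change -0.61, SE 0.15, adjusted p = 0.0071, edgeR). Both were called under all 17 alternatives.

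Il4ra, the chain that pairs with Il13ra1, had a log2 fold change of -0.50 (SE 0.18, adjusted p = 0.049, edgeR), with overlapping ranges and a call under 8 of 17 alternatives. Clca1, a goblet cell protein that interleukin-13 induces and that also stands in the goblet list, was at 1357 to 1757 in WT and 555.3 to 1220 CPM in Rank-knockout (log2 fold change -0.67, SE 0.20, adjusted p = 0.021, edgeR), called under 15 of 17. Stat6, the transcription factor downstream of these receptors, had 0.05 (SE 0.16, adjusted p = 0.85, edgeR), and Il17rb, a chain of the interleukin-25 receptor, had 0.10 (SE 0.43, adjusted p = 0.88, edgeR). The cytokines Il4, Il5, Il13 and Tslp had 0 counts in all 8 libraries. Retnlb, another goblet cell target of interleukin-13, had 32 counts in Rank-knockout replicate 1 and 0 in the other 7 libraries, so that its value is that of 1 animal.

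Other cells that express tuft cell genes were looked for by their markers. The myeloid list, whose cells also make Ltc4s and Alox5ap, had 0 of 10 genes with enough counts to test, and its summed level was 10.9 to 21.97 in WT and 7.12 to 17.4 CPM in Rank-knockout. The sum averaged 17.3 and 12.0 CPM, and the mean was lower in Rank-knockout for 6 of the 10 genes, higher for 3 and 0 for the macrophage marker Adgre1. Fcer1g was at 2.28 to 5.33 CPM in the WT libraries and 0.899 to 2.12 CPM in the knockout libraries, with no overlap. In the fit without the filter 0 of the list were called (1 lower at an unadjusted p under 0.05, Tyrobp, at a log2 fold change of -1.73, SE 0.81; edgeR). Tyrobp rests on WT replicate 4, which held 10 of its 14 WT counts. The mast cell and basophil list also had 0 of 10 tested, at 1.37 to 5.48 in WT and 3.16 to 7.505 CPM in Rank-knockout, with Fcer1a, Ms4a2 and Mcpt4 at 0 counts in all libraries. Summed by genotype, WT first, the mast cell protease Mcpt1 had 2 and 4 counts, Mcpt2 had 3 and 5, Cpa3 had 0 and 1, Tpsb2 had 4 and 0, and the histamine enzyme Hdc had 9 and 9. Kit led the list, with a mean of 1.72 in WT and 4.44 CPM in Rank-knockout. It was called higher in the fit without the filter (adjusted p = 0.029, edgeR). No other gene of the list was called there, so the call does not describe mast cells and basophils as a group. DESeq2 called 0 of the list (1 higher at an unadjusted p under 0.05). The megakaryocyte and erythroid list, relevant to Gfi1b, had 0 of 8 tested, at 4.82 to 13.02 and 2.9 to 13.16 CPM, with Pf4, Gp9, Ppbp and Gata1 at 0 counts. The part of these cells in the values of Ltc4s and Cd300lf was not tested.

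Lymphocyte transcripts were also present. The T cell list summed to 224.5 to 343.5 in WT and 156.5 to 258.9 CPM in Rank-knockout, with 6 of 10 genes tested and 0 called by edgeR, DESeq2 or limma-voom (1 lower at an unadjusted p under 0.05 by edgeR). Most of that sum was Gzma (a mean of 180.2 in WT and 131.7 CPM in Rank-knockout) and Cd7 (61.3 and 46.8 CPM), while Cd3e (8.80 and 6.56 CPM) was near the level of the tuft cell genes. The median log2 fold change of the tested T cell genes was -0.34, against 0.02 over all genes tested. Of the B and plasma cell list only Igha was tested (-1.49, SE 0.53, adjusted p = 0.066, edgeR), and the list summed to 31.4 to 97.3 in WT and 6.29 to 41.3 CPM in Rank-knockout, with Cd79a at 0 counts. Jchain, which joins the chains of secreted IgA, was at 3.42 to 7.86 CPM in the WT libraries and 0.45 to 2.9 CPM in the knockout libraries, with no overlap, and was called lower in the fit without the filter (log2 fold change -1.38, SE 0.45, adjusted p = 0.019, edgeR). DESeq2 called 1 gene of this list lower and limma-voom 0. Ptpn6, Vav1, Fyb and Inpp5d of the tuft cell structure and signalling list are expressed by these blood cells as well, and their part in those values was not tested.

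The tuft cell genes were set beside the other secretory lineages, whose lists were counted in the same fit. The enteroendocrine list, also of rare cells, summed to 588.4 to 683.9 in WT and 457.4 to 805.3 CPM in Rank-knockout, with 1 gene higher (Tac1, 1.25, adjusted p = 0.0023, edgeR) and 1 lower (Nts, -1.37, adjusted p = 0.02, edgeR) of 11 tested and a median of -0.02. Goblet markers had 2 higher and 4 lower of 8 tested (median -0.44), and Paneth markers had 4 higher of 8 (median 1.15), a count that was 1 with limma-voom, 3 without the filter and 5 with DESeq2. Outside the secretory lineages, 11 of 12 villus enterocyte markers were lower (median -1.16) and 14 of 14 replication and cell cycle genes were higher (median 1.23). Markers of 2 large compartments thus moved with genotype, in opposite directions. In the same libraries Sox9 and Cd24a were higher, and Espn, Il33, Il13ra1, Il4ra and Clca1 lower. The part of the 2 compartments in those values was not tested.

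**Figure D5:**
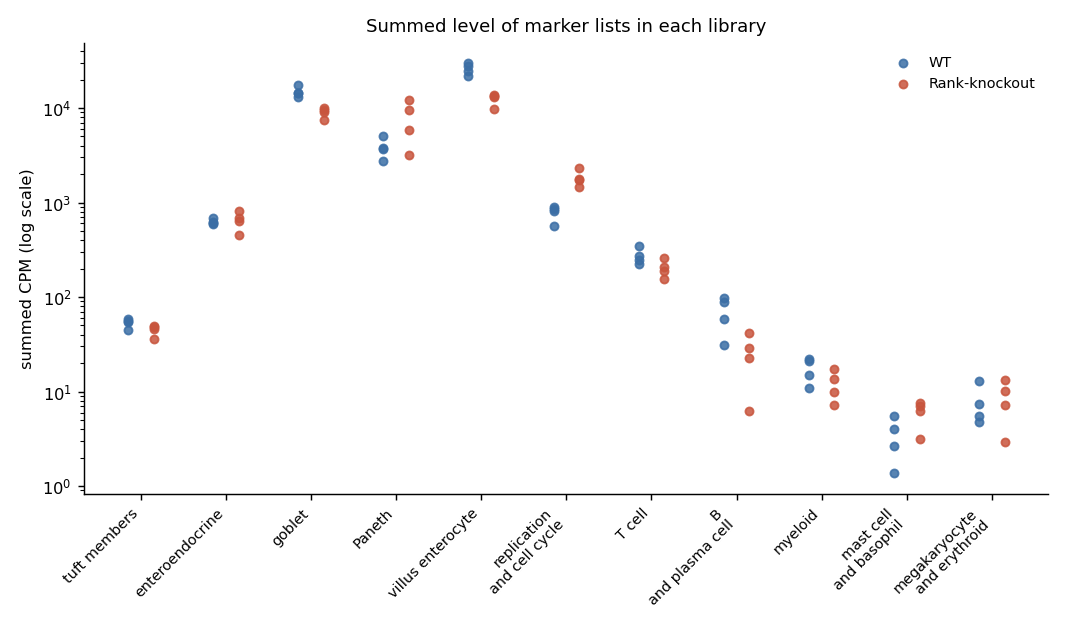
Summed CPM of the 9 tuft cell genes and of 10 lists of other cell types and the cell cycle (log scale) in the 4 WT and the 4 Rank-knockout libraries. The tuft cell genes lie at 35.85 to 59.2 CPM with overlapping genotypes, below the enteroendocrine, goblet and Paneth lists, while the goblet, villus enterocyte and replication and cell cycle lists separate the genotypes.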

How the data were processed

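RNA of intestinal epithelial cells from 4 WT and 4 Rank-knockout mice was sequenced with a 3′ mRNA kit. The cell isolation described in the methods uses dissociation and a strainer, without sorting. The authors trimmed the reads, discarded abundant sequences, mapped what was left to GRCm38 (STAR, Ensembl annotation) and counted reads by gene with featureCounts, strand-specifically. The deposited values are raw counts without normalization, which the authors analysed with DESeq2. No molecular identifiers are described, and a PCR copy therefore adds to the count. Symbols and positions come from GENCODE M21 (54495 of 54532 identifiers matched), and 33764 genes had 0 counts in all libraries.

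Genes were tested with edgeR 4.0.16 (R 4.3.3; robust quasi-likelihood F-test, filterByExpr with a minimum count of 10, TMM, genotype as the only term), with Benjamini-Hochberg adjustment and a threshold of 0.05. Log2 fold changes are Rank-knockout minus WT, and SE and 95% intervals come from the fit. Intervals of summed rates (exact, from the pooled counts of a genotype) and the limit of 3 counts cover counting error only. Libraries are labelled as separate mice. The 17 alternatives changed the scaling (RLE, library totals, or totals after removing the 50 most abundant genes), the filter (none, or mean CPM 5 and above), the tool (DESeq2 1.42.0; limma-voom, limma 3.58.1), the design (replicate number as block), the depth (all libraries thinned to the shallowest) or the libraries (each left out in turn). For the summed level, leaving out libraries and summing only the 5 tested members were added after seeing the data. Dclk1 contains small same-strand gene models (Gm19817, 22 counts in all). Trpm5, Avil and Ltc4s overlap genes on the opposite strand, which strand-specific counting keeps apart.

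The members and all lists were chosen with earlier results of these data known, so no p adjusted over a list is given. Some genes of the lists are counted but not reported here by name. The text names every member, genes of the tuft cell lists (called genes first), leading markers of other cells, Tnfrsf11a, and the 5 genes (mean CPM 5 or more) most correlated with the centred mean of the tested members (log2 CPM, prior count 2).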

Additional observations from a re-analysis of the deposited data

Results flagged for a closer look

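In each genotype, the highest or lowest of the 4 libraries was compared with the others for the 9 members, the tested genes of the further tuft cell lists and the summed level. Of 82 sets of 4 values, 9 held a library whose gap to its nearest neighbour passed Dixon's 95% limit. For continuous values chance gives about 4.1, a figure that does not hold for genes with few counts. Gfi1b, with a single count in each genotype, was certain to be flagged.

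Among the members, Alox5ap had 6.33 CPM in Rank-knockout replicate 4, against 7.88 to 8.09 CPM in the other 3. Avil had 0.527 CPM in the same library, against 3.002 to 3.184 CPM. Pou2f3 had 1.35 CPM in Rank-knockout replicate 3, against 0.264 to 0.424 CPM, which is a difference of 1 to 2 counts. Gfi1b was at 0.253 CPM in WT replicate 2 and at 0.212 CPM in Rank-knockout replicate 1, each a single count where the other libraries of the genotype had 0. Among the further genes, Itpr3 had 84.98 CPM in Rank-knockout replicate 3 (others 102.8 to 105.4), Lrmp 19.9 CPM in Rank-knockout replicate 2 (11.2 to 12.3), Tmem176a 17.9 CPM in Rank-knockout replicate 4 (21.76 to 22.03) and Ffar3 5.48 CPM in WT replicate 1 (7.322 to 7.602). Of these genes, Alox5ap, Itpr3, Lrmp, Tmem176a and Ffar3 were tested between genotypes and not called. Avil, Pou2f3 and Gfi1b had too few counts to be tested.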

How the results depend on the processing

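The count of members was 0 higher and 1 lower, with Ltc4s the one called, under all 17 alternatives. Sh2d6 was not tested after thinning. Dclk1 was positive with library totals (0.14), with sizes that leave out the 50 most abundant genes (0.07) and when Rank-knockout replicate 2 was left out (0.10), within -0.15 to 0.10 over the libraries left out in turn. Sh2d6 was negative without WT replicate 3 (-0.13) or Rank-knockout replicate 2 (-0.19), within -0.19 to 0.47. The summed level (log2 ratio -0.26) was -0.04 without its most abundant member, Ltc4s, -0.07 with library totals and -0.34 to -0.17 with a library left out. Library totals moved the median of all genes from 0.02 to 0.22. They gave 2566 genes higher and 859 lower, in place of 1555 and 1438. Of the further tuft cell genes, 6 were then higher and 3 lower, in place of 4 and 8. Sizes that leave out the 50 most abundant genes (median 0.15) gave 4 of them higher and 5 lower. With a library left out, 1020 to 1723 genes were higher (1020 without WT replicate 4) and 1097 to 1564 lower, and 2 to 6 further tuft cell genes were higher and 5 to 7 lower. The count of 2 higher came without WT replicates 1, 3 or 4 or Rank-knockout replicates 2 or 3, and that of 5 lower without WT replicate 4 or Rank-knockout replicate 3. The cause was not tested.

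The deviations of WT and Rank-knockout libraries with the same replicate number had correlations of 0.05, 0.15, -0.14 and 0.32. These values cannot decide whether the numbers pair libraries, and the labels do not say. With the replicate block, 1708 genes were higher and 1602 lower, Ltc4s was called at -0.90, and 5 further tuft cell genes were higher and 8 lower.

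Depth limits Avil, Pou2f3, Il25 and Gfi1b most, and the 95% intervals of Trpm5, Dclk1, Sh2d6 and Alox5ap do not show that these genes were equal between genotypes.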
